A study of Mus musculus with 12 samples.

Results

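The pyramidal cell layer of the hippocampus is divided into fields, of which CA3 and CA1 are the largest, and 10 genes that mark these fields in mice were followed here across 12 libraries of hippocampal RNA. They were taken by symbol: Wfs1, Fibcd1, Mpped1, Pou3f1 and Lefty1 for CA1, and Bok, Iyd, Coch, Cpne4 and Grik4 for CA3. All 10 were found among the 46078 gene IDs of the table and all 10 were among the 17496 genes with a mean of at least 10 normalized counts that were tested. The tissue came from C57BL/6 mice at postnatal day 25 and formed 4 groups of 3 libraries: wild-type males, wild-type females, and males and females heterozygous for the CHD8 Asn2373LysfsX2 frameshift. The labels name no treatment, and do not say whether each library is a mouse of its own, so p-values here cover only library-to-library spread, possibly technical.

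In the hippocampal circuit, granule cells of the dentate gyrus send mossy fibres to CA3 pyramidal cells, whose Schaffer collaterals reach CA1, the main output field beside the subiculum. The fields are distinguished by sharply bounded sets of genes, so in RNA of the whole structure the level of a field's markers follows both how much of that field is in the piece and how strongly its cells express them. Chd8 encodes a chromatin remodelling protein that is linked to autism. The comparison of mutants with wild type addressed which transcripts differ with the loss of 1 functional copy.

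Mutant libraries held 23721482 to 24654408 recovered reads and wild-type ones 26912998 to 33327314, so depth and genotype cannot be told apart. Chd8 itself lay at 2383 to 2513 normalized counts in mutants and 2751 to 2994 in wild type (exact permutation p = 0.005 within the sexes, the smallest that 400 arrangements give) and was lower in all 6 mutants than in any wild-type library. Choroid plexus markers, from the secretory tissue beside the hippocampus, had a mean log2 level of 9.19 to 10.94 in 9 libraries. In the other 3 it was 4.52 (wild-type female 1), 4.63 (mutant male 2) and 5.18 (mutant male 3). For the field markers, 2 other libraries stood apart, wild-type female 3 and mutant male 1. They were singled out after the values were seen. In both, each of the 5 CA1 genes was below its lowest value in the other 10 libraries.

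The CA1 genes differed up to 2.55-fold between libraries, and these differences did not follow genotype. Mpped1, which encodes a metallophosphoesterase, had 3068, 4079 and 3382 normalized counts in males of wild type and 2265, 3222 and 4228 in their mutant counterparts. Females had 4998, 4147 and 2100 when wild type and 4057, 2725 and 4077 when mutant. The wild-type and mutant values overlapped in both sexes, and the 2 lowest values belonged to wild-type female 3 and mutant male 1.

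Fibcd1, a membrane protein whose extracellular domain resembles fibrinogen and binds acetylated sugars, stood at 2835, 4451 and 4147 normalized counts in males of wild type and at 2400, 3354 and 5022 in their mutant counterparts. Its values in females were 4719, 4724 and 2539 without the mutation and 5019, 3385 and 4788 with it. Mutant male 1 was lowest and mutant male 3 highest, so that 1 group held both ends of the range. The sequence upstream of the RefSeq start of Fibcd1 and that of the downstream of 2 RefSeq starts of Mpped1 are shown because these were the members that moved together most closely. Each is the 250 bases before the start on GRCm38.p6, from RefSeq, with CG dinucleotides in capitals. That of Fibcd1 (chr2:31846006-31846255, minus strand) is 71.6% G and C with 34 CG, and that of Mpped1 (chr15:83784579-83784828, plus strand) 46.8% with 2 CG, against medians of 52.4% and 6 CG over 32851 such windows. The window of the upstream start of Mpped1 (chr15:83779773-83780022), which is not printed, is 88.8% G and C with 47 CG.
Fibcd1: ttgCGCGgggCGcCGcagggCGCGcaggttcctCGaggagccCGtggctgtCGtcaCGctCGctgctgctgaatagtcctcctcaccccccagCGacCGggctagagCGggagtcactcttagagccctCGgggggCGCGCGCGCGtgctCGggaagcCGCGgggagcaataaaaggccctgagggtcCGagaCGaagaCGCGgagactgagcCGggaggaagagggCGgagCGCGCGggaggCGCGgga
Mpped1: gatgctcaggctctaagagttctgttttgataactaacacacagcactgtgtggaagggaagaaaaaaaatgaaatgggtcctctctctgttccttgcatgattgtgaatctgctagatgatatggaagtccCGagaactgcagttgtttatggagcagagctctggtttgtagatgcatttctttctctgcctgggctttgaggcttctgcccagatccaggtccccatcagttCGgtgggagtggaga

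Wfs1, an endoplasmic reticulum membrane protein whose loss causes Wolfram syndrome, had 3795, 2942 and 4005 normalized counts in males of wild type against 2885, 4868 and 3521 in those with the mutation. The female values were 3622, 4430 and 2321 against 3768, 3594 and 3136. Wild-type female 3 was again lowest and mutant male 1 next, closely followed by wild-type male 2. Lefty1, a secreted antagonist of Nodal signalling, had the widest range of the 10 genes. Males of wild type had 233, 288 and 229 normalized counts of it and those with the mutation 175, 310 and 251. For females these were 244, 366 and 144 against 295, 258 and 276. The lowest and the highest Lefty1 value both belonged to wild-type females.

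Pou3f1, a POU-domain transcription factor encoded by a single exon, ranged from 647 in wild-type female 3 to 1256 normalized counts in wild-type female 2, with 753 in mutant male 1. Its exon shares 330 bases with the antisense gene Gm2164 (mean 54.1 normalized counts), and the library kit does not keep strand, so reads of that stretch could not be told apart.

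Among the CA3 genes, Coch varied most and the glutamate receptor gene Grik4 and the copine gene Cpne4 least. Coch encodes cochlin, a secreted matrix protein best known from the inner ear. It had 361, 342 and 327 normalized counts in males of wild type against 485, 272 and 233 in those with the mutation. Females had 238, 267 and 412 against 403, 496 and 354. Its highest values were in mutant female 2, mutant male 1 and wild-type female 3, and its lowest in mutant male 3 and wild-type female 1. It was thus high in wild-type female 3 and mutant male 1, where CA1 genes were low. Coch was also low in the 3 libraries lowest in choroid plexus markers (238 in wild-type female 1, 272 in mutant male 2, 233 in mutant male 3). Wild-type female 2, with 267, had a choroid plexus level of 9.19, and mutant female 2, with 496, one of 9.40. The part of choroid plexus in Coch levels was not tested. Its upstream sequence is shown beside those of Fibcd1 and Mpped1 because Coch moved against both. It lies at chr12:51593091-51593340 on the plus strand and is 74.8% G and C with 24 CG, in capitals.
Coch: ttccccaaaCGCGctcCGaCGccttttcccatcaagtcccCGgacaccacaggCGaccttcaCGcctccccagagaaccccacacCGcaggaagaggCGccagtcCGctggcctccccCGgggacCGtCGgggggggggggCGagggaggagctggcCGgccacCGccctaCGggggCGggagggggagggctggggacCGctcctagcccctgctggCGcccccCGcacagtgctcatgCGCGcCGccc

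Grik4, the kainate receptor subunit concentrated at mossy fibre synapses, was nearly level in 11 libraries, at 1778 to 2033 normalized counts, and reached 2387 in wild-type female 3. Cpne4, which binds phospholipid in a calcium-dependent way, ranged from 3080 to 3781, with wild-type female 3 and mutant male 1 (3745) highest. Bok, a BCL2-family protein of programmed cell death, ranged from 1799 in wild-type female 1 to 2644 in mutant male 2. Iyd, the deiodinase that salvages iodide from iodotyrosines, ranged from 191 in wild-type male 2 to 296 in wild-type male 1. Neither Bok nor Iyd was highest in wild-type female 3 or mutant male 1.

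**Figure D1:**
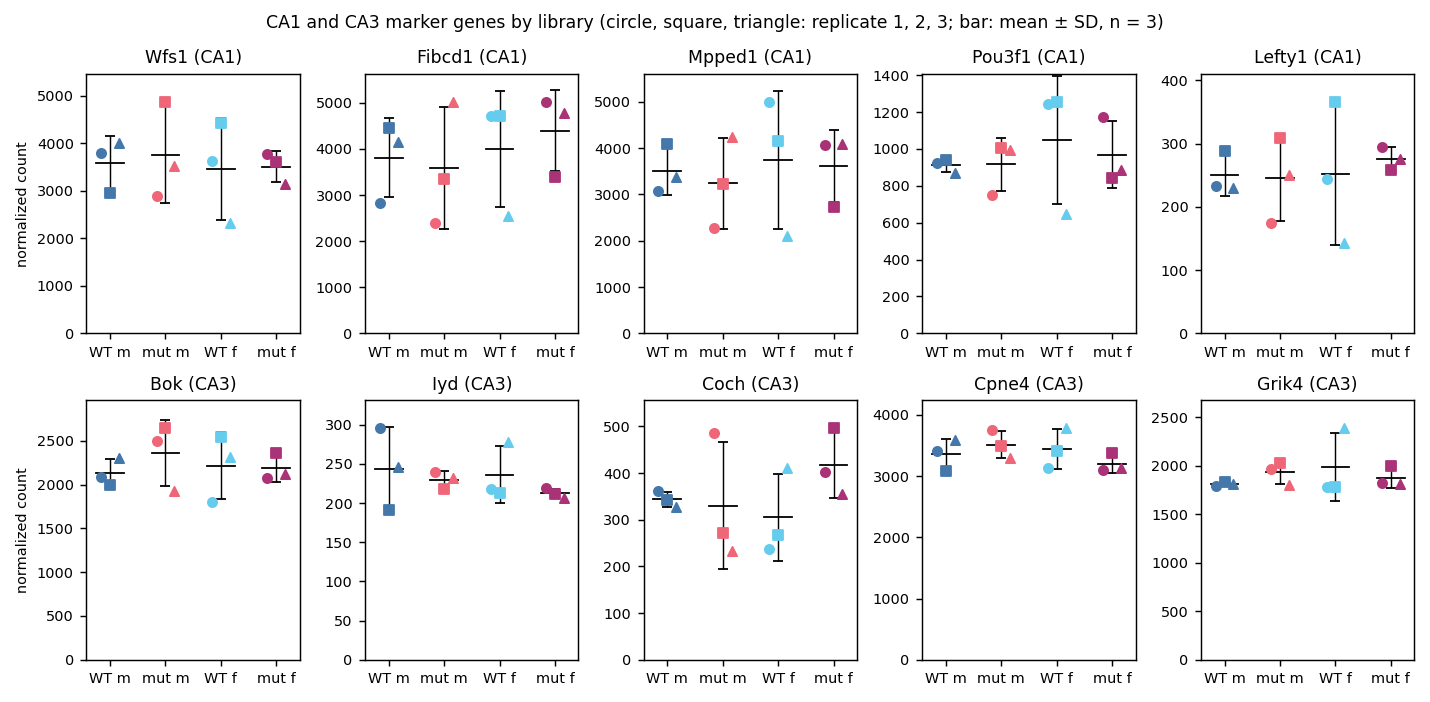
Normalized counts (vertical axes, from 0) of the 10 genes in 4 groups of 3 libraries, with a point per library and the mean ± SD (n = 3) in black. In the upper row, wild-type female 3 (triangle) and mutant male 1 (circle) are the lowest points of the CA1 genes, down to 2100 for Mpped1 and 144 for Lefty1, while the groups overlap in every panel.

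Per kilobase of merged exons, the scale on which genes can be set beside each other, Bok had the highest mean level (1208 ± 143 normalized counts per kilobase, SD over 12 libraries). It was above Wfs1 (944 ± 184) in 12 of 12 libraries. Wfs1, Fibcd1 (831 ± 208) and Mpped1 (822 ± 205) did not keep 1 order, with Wfs1 above Fibcd1 in 7 of 12 libraries and Fibcd1 above Mpped1 in 7 of 12. Cpne4 (615 ± 44.0) was below Mpped1 in 10 of 12 libraries and above Grik4 (319 ± 29.7) in 12 of 12. Pou3f1 (250 ± 48.7) lay below Grik4 in 9 of 12 and above Lefty1 (145 ± 33.7) in 12 of 12. Lefty1 and Iyd (142 ± 18.7) differed by 0.01 on the log2 scale with an SD of 0.50, and Coch was lowest (116 ± 29.5).

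The spread of a gene was taken as the SD of log2(normalized count + 1) around the 4 group means (8 degrees of freedom), which leaves genotype and sex out of it. By this measure Mpped1 (0.44) and Fibcd1 (0.44) spread most, followed by Lefty1 (0.41), Coch (0.37), Wfs1 (0.33) and Pou3f1 (0.33), and then, well below, by Iyd (0.19), Bok (0.19), Grik4 (0.14) and Cpne4 (0.10). Every CA1 gene spread more than every CA3 gene other than Coch. Genes of similar level, within 0.5 on the log2 scale, had a median SD of 0.05 around Mpped1, Fibcd1 and Wfs1, and 99.6% to 99.9% of them spread less than these 3 genes. The same percentile was 98.5% for Pou3f1, 97.1% for Bok, 96.3% for Coch, 95.5% for Lefty1, 92.6% for Grik4, 89.4% for Cpne4 and 79.7% for Iyd. Counting error alone gives an SD of 0.02 for Fibcd1, so its spread was 18.4 times that, while Iyd, with 183 to 335 reads, spread 2.03 times its counting error of 0.10. Wild-type female 3 alone carried 46.9% of the squared deviations of Pou3f1 and 53.9% of those of Grik4. Without it the SD of Pou3f1 was 0.19 and that of Grik4 0.06.

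The balance between CA1 and CA3 marker levels differed between libraries. The mean log2 level of the 5 CA1 genes minus that of the 5 CA3 genes was 0.48, 0.86 and 0.64 in males of wild type against -0.01, 0.77 and 0.98 in those with the mutation. For females it was 1.13, 1.10 and -0.21 against 0.94, 0.42 and 0.82. The span of 1.34 corresponds to a 2.53-fold change in the ratio of the geometric mean CA1 level to the geometric mean CA3 level. Over the 10 libraries other than wild-type female 3 and mutant male 1 the span was 0.71 (1.63-fold). Group means (± SD, n = 3) were 0.66 ± 0.19 (wild type) and 0.58 ± 0.52 (mutant) for males, and 0.67 ± 0.76 and 0.72 ± 0.27 for females, so they differed by less than the spread within any group. In such bulk RNA, fewer cells of a field and less RNA per cell cannot be told apart.

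**Figure D2:**
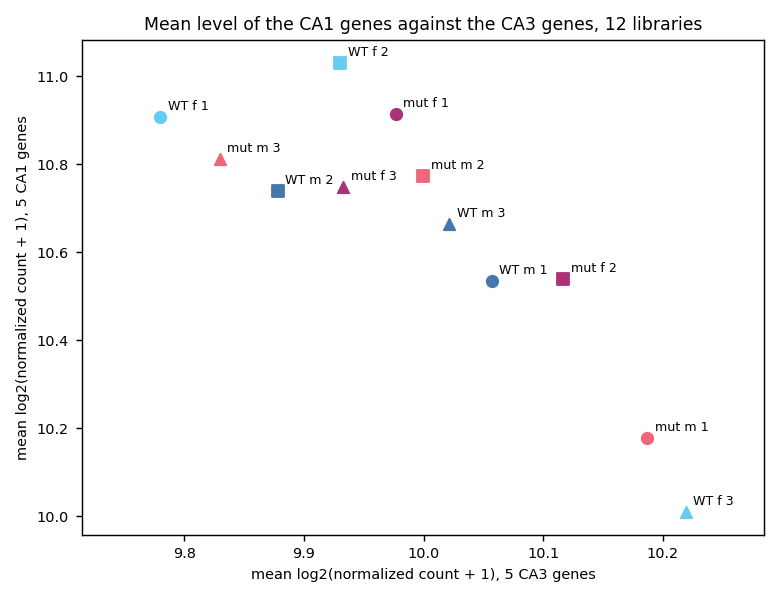
Mean log2(normalized count + 1) of the 5 CA1 genes (vertical) against that of the 5 CA3 genes (horizontal), 1 point per library, coloured by group. Wild-type female 3 and mutant male 1 lie at the lower right, with CA1 means of 10.01 and 10.18 against 10.53 to 11.03 elsewhere, and libraries of each genotype lie along the whole range.

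Deviations from the group means showed how the members moved together. All 10 pairs of CA1 genes had a positive Pearson r over the 12 libraries (0.43 to 0.94, median 0.76), as did all 10 pairs of CA3 genes (0.11 to 0.75, median 0.56), while 23 of 25 pairs of a CA1 with a CA3 gene had a negative one (median -0.63). Without the 2 libraries farthest from the median of the first gene of each pair, these medians were 0.48, 0.56 and -0.51. Each r was tested by exact permutation of libraries within groups (1296 arrangements, two-sided) and adjusted over 45 pairs. By Pearson's r 4 of 45 pairs passed 0.05 after adjustment and 18 had an unadjusted p under 0.05, and 1 pair, Pou3f1 with Lefty1, also passed by Spearman's rho. No sequencing batch is given in the labels, so no value within batches could be had.

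Fibcd1 and Mpped1 rose and fell together most closely (r = 0.94, exact permutation p = 0.00309, adjusted p = 0.0434; rho = 0.94, exact permutation p = 0.00386, adjusted p = 0.0579), and r was 0.90 without the 2 libraries farthest from the median of Fibcd1. Pou3f1 and Lefty1 followed (r = 0.86, exact permutation p = 0.000772, the smallest these arrangements give, adjusted p = 0.0347; rho = 0.86, exact permutation p = 0.000772, adjusted p = 0.0347), with r = 0.63 without the farthest 2. Across the fields, Mpped1 moved against Coch (r = -0.91, exact permutation p = 0.00386, adjusted p = 0.0434; rho = -0.85, exact permutation p = 0.00540, adjusted p = 0.0608), with r = -0.86 without the farthest 2. It moved against Cpne4 in the same way (r = -0.90, exact permutation p = 0.00309, adjusted p = 0.0434; rho = -0.90, exact permutation p = 0.00309, adjusted p = 0.0579), with r = -0.85 without them. These 4 relations kept their sign without the outlying libraries.

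Wfs1 had no r past the adjusted threshold with Fibcd1 or Mpped1, and both values fell below 0 once those libraries were set aside. Its r with Fibcd1 was 0.43 (exact permutation p = 0.319, adjusted p = 0.388; rho = 0.45, exact permutation p = 0.284, adjusted p = 0.387) and became -0.14 without wild-type female 3 and mutant male 1, and its r with Mpped1 went from 0.49 (exact permutation p = 0.314, adjusted p = 0.388; rho = 0.41, exact permutation p = 0.353, adjusted p = 0.426) to -0.14. The positive sign of these 2 r values was thus lost without the 2 libraries, a change that was not tested. Its r with Lefty1 was 0.79 (exact permutation p = 0.0656, adjusted p = 0.134; rho = 0.57, exact permutation p = 0.180, adjusted p = 0.279) and 0.51 without them. With Pou3f1 its r was 0.76 (exact permutation p = 0.0463, adjusted p = 0.120, and rho = 0.75, exact permutation p = 0.0309, adjusted p = 0.125) and 0.45 without them. Bok was the CA3 gene least opposed to CA1 genes, at r = 0.22 with Wfs1 (exact permutation p = 0.597, adjusted p = 0.648; rho = 0.40, exact permutation p = 0.360, adjusted p = 0.426) and 0.59 without the same 2 libraries. Its r with Mpped1 was -0.58 (exact permutation p = 0.198, adjusted p = 0.296, and rho = -0.48, exact permutation p = 0.272, adjusted p = 0.384) and -0.64 without them. With Fibcd1, Pou3f1 and Lefty1 the r of Bok was -0.49, -0.31 and 0.03.

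**Figure D3:**
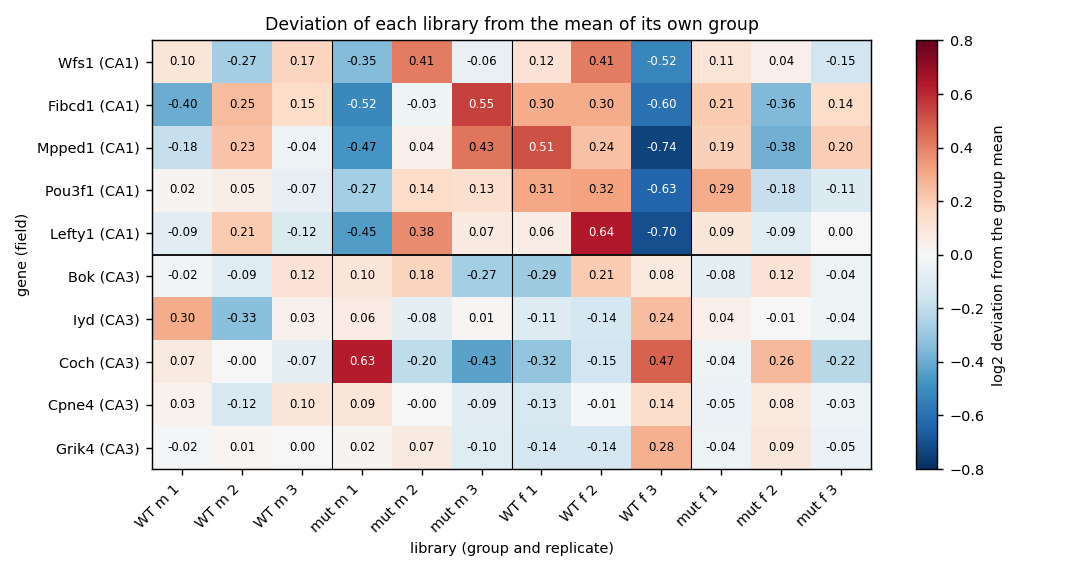
Log2 deviation of each of the 10 genes (rows) from the mean of its own group in the 12 libraries (columns), red above and blue below. The CA1 rows of wild-type female 3 run from -0.52 to -0.74 and those of mutant male 1 from -0.27 to -0.52, while all 5 CA3 rows of both libraries are above 0.

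**Figure D4:**
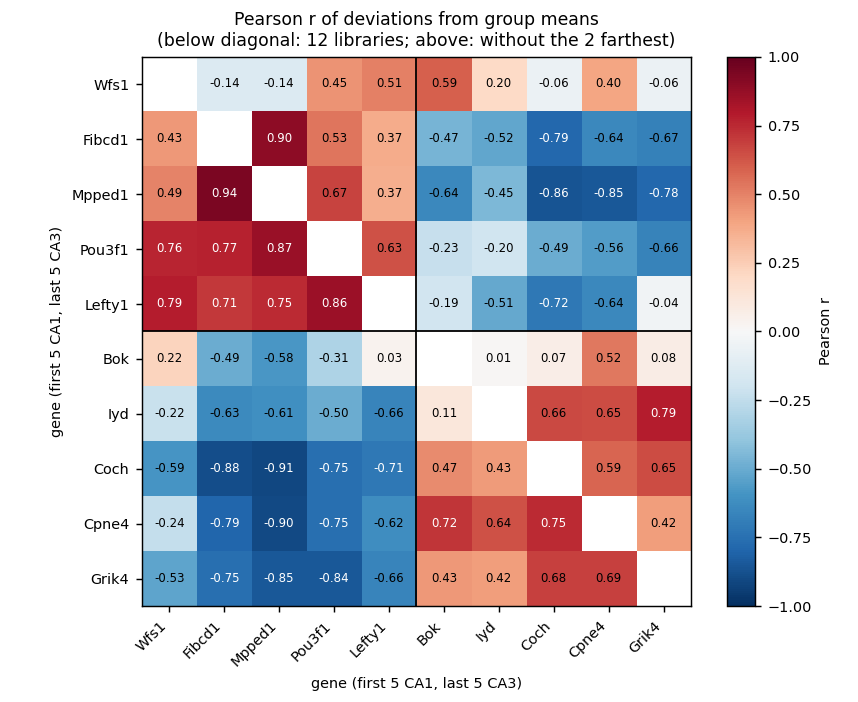
Pearson r between the deviations of each pair of genes, over 12 libraries below the diagonal and without the 2 libraries farthest from the median of the first gene of the pair above it. Blocks of positive r within CA1 and within CA3 and of negative r between them are visible. Above the diagonal Wfs1 has a negative r with Fibcd1 and Mpped1 and a positive one with Pou3f1 and Lefty1.

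Of other genes known from the same fields, most of the CA1 genes and some of the CA3 genes stood out in the same libraries. Of 9 other tested CA1 genes, 6 were below all of the other 10 libraries in wild-type female 3 and 6 in mutant male 1, against 10.5% and 11.3% of all tested genes. Ccn3, a secreted matricellular protein, had 494 normalized counts in wild-type female 3 and 906 in mutant male 1 and reached 3432 in wild-type female 1. Of 8 other CA3 genes, 4 were above all of the other 10 libraries in wild-type female 3 and 3 in mutant male 1, against 8.88% and 10.2% of all tested genes. Plagl1, an imprinted zinc finger gene, had 1427 and 1567 normalized counts there, with 545 as its lowest value. Csf2rb2, a cytokine receptor subunit, had 194 and 164, with 106 as its lowest. In each of the 2 libraries 1 of the 8 was instead below all of the others, and Dkk3, a secreted Dickkopf-family protein picked after its values were seen, had its lowest values there (7076 and 6800, against up to 8720).

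Markers of other fields and cells were not all level in these libraries. Mean log2 levels in wild-type female 3 and mutant male 1 were 10.16 and 10.16 for dentate granule cells, within the range of the other 10 libraries (9.97 to 10.26), and 12.55 and 12.68 for genes of all pyramidal cells (12.53 to 12.77). CA2 markers stood at 8.63 and 8.79 against 8.41 to 8.76. Subiculum markers stood at 7.26 and 7.58 against 7.43 to 8.25, with 5 of 6 tested genes below all of the other 10 libraries in wild-type female 3. Genes of the dorsal pole, of which 4 of 10 are members here, stood at 9.60 and 9.68 against 9.94 to 10.18, and those of the ventral pole at 9.47 and 9.54 against 8.87 to 9.89. The dorsal list also shares genes, among them Ccn3, with the other CA1, other CA3 and dentate granule lists. The ventral list holds the member Coch. It also holds Htr2c, picked after its values were seen, at 3183 and 3260 normalized counts. Htr2c had 863 to 1237 in the 3 libraries lowest in choroid plexus markers and up to 3322 elsewhere. Inhibitory neuron markers were lowest in wild-type female 3 (10.25 against 10.29 to 10.48 in the other 10) and oligodendrocyte markers lowest in mutant male 1 (13.82 against 13.99 to 14.54), with 14.49 in wild-type female 3. Endothelial markers stood at 9.70 and 9.68 against 9.70 to 10.16, with 4 of 7 genes below all of the other 10 libraries in mutant male 1, and neocortex markers at 8.79 and 8.73 against 8.75 to 9.08. Choroid plexus markers stood at 10.84 and 10.83, and the 3 libraries lowest in them had CA1 minus CA3 values of 1.13, 0.77 and 0.98. Their part in the levels of the field markers was not tested.

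Some genes not chosen as field markers followed the CA1 or the CA3 members closely. Over the 12 libraries, genes with a mean of at least 100 normalized counts were ranked by Pearson r of their deviations with a field mean. For this mean the deviations of each of the 5 genes were first divided by the gene's SD. Highest for CA1 were Pex5l, an auxiliary subunit of HCN channels (0.99), Gm2115 (0.98), Hepacam, a glial adhesion protein (0.97), Prkcb, a protein kinase C (0.97), and Sec14l1 (0.97). Those nearest to the CA3 mean were Tmem108 (0.96), Sod3, the extracellular superoxide dismutase (0.96), Wdr26 (0.95), Epb41l4a (0.95) and the endocytic adaptor Dab2 (0.95). Some of these genes varied little. Wdr26 ranged only from 5204 to 5519 normalized counts (SD 0.03 on the log2 scale), and Hepacam and Sec14l1 had SDs of 0.07 and 0.08, against 0.24 for Pex5l. Nearest to Mpped1 alone were Galnt9 (0.99), Ndst3 (0.99) and Plcl2 (0.99), and nearest to Coch Ogfod3 (0.98), Arhgef5 (0.97) and Ppp1r3b (0.97). They were picked as the highest of many, and share library and depth with the members.

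None of the 10 genes differed by genotype beyond this spread. In the average over both sexes 0 of 10 passed an adjusted p of 0.05 in limma, where 0.00572% of all tested genes did (Chd8 alone), and 0 of 10 had an unadjusted p under 0.05, where 8.87% did. Differences of mutant minus wild type ran from -0.10 for Iyd to 0.17 for Coch on the log2 scale (lowest limma adjusted p = 0.808). The median was 0.03 for CA1 and 0.01 for CA3 genes, beside 0.00 for all tested genes, with 3 of 5 above 0 in each field, as were 49.9% of all tested genes. These signs depended on the scaling: relative to genes of all pyramidal cells, the averaged differences of Wfs1 (-0.0045), Fibcd1 (-0.035) and Grik4 (-0.046) lay below 0. The values of wild type and mutants overlapped for all 10 genes, while they did not overlap for 16% of tested genes in males, 10.8% in females and 0.543% in the sexes together.

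The precision differed with the spread. For Cpne4 the averaged difference was -0.02 ± 0.05 (standard error), with a 95% interval of -0.13 to 0.10, and for Grik4 0.01 ± 0.07 (-0.13 to 0.16). For Mpped1 it was -0.07 ± 0.21 (-0.52 to 0.39). Fibcd1 (0.03, -0.42 to 0.48) and Lefty1 (0.09, -0.34 to 0.52) had intervals of similar width, and those of Wfs1 (0.06, -0.29 to 0.40) and Pou3f1 (-0.03, -0.37 to 0.30) were narrower. The CA3 gene Coch (0.17, -0.21 to 0.56) had a wider interval than Wfs1 and Pou3f1. With 3 libraries a group, all of these intervals included 0 and left room for differences of either sign. They are not adjusted for the number of genes, and the smallest detectable difference was not computed.

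Within each sex limma called 0 of 10 genes (0% of all tested genes were called in either sex), with 0 of 10 at an unadjusted p under 0.05 against 10.3% of tested genes in males and 6.9% in females. The widest difference in males was that of Mpped1 (-0.15 ± 0.30, adjusted p = 0.906). In females it was that of Coch, at 418 ± 72.1 normalized counts in mutants against 305 ± 93.1 in wild type (SD, n = 3; 0.48 ± 0.25, adjusted p = 0.774). For Coch the male difference was -0.13 ± 0.25, and the difference between the sexes of -0.61 ± 0.36 had an adjusted p of 0.726. Leaving out the 3 choroid-poor libraries, the male difference of Coch was 0.50 and that between the sexes 0.18, but mutant males are then mutant male 1 alone (485 normalized counts), whose spread is assumed to be that of the other groups. The genotype effect differed by sex in 0 of 10 genes and in 0% of tested genes, with 0 of 10 at an unadjusted p under 0.05 against 7.85%. CA1 and CA3 genes also did not pass between males and females (0 of 10, against 0.0686% of tested genes, 0 of 10 unadjusted against 6.64%, and 0 of 10 without overlap against 0.469%), with male minus female differences from -0.19 for Fibcd1 to 0.08 for Wfs1. Counts of the 10 genes were also 0 with edgeR, DESeq2 and limma-voom in each of these comparisons, but DESeq2 gave no adjusted p for Lefty1, Iyd and Coch within either sex and for Pou3f1 in males.

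**Figure D5:**
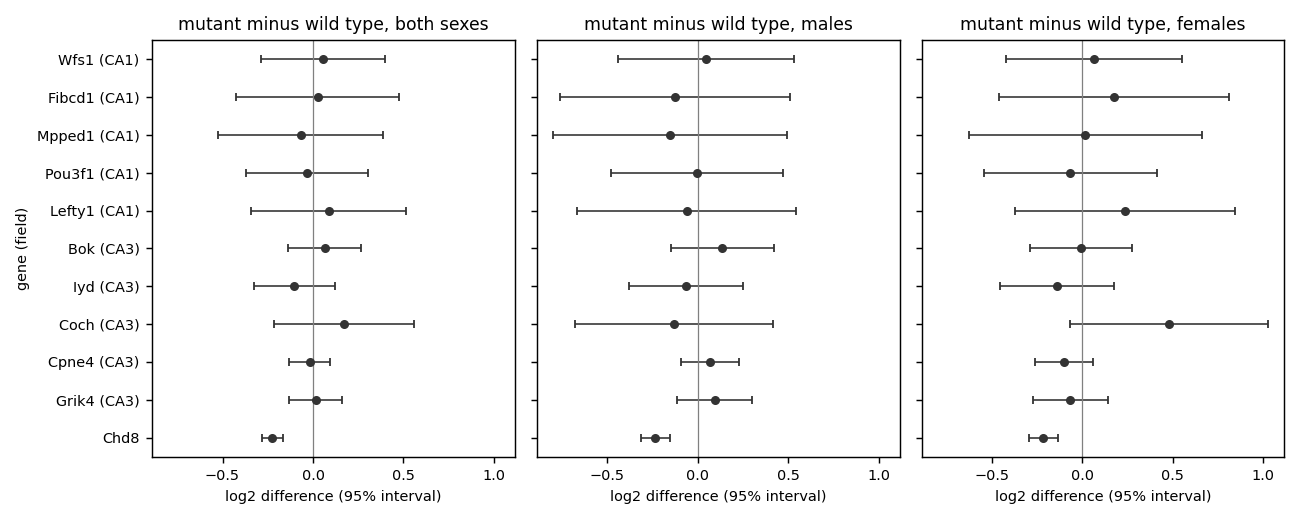
Log2 difference of mutant minus wild type with its 95% interval for the 10 genes and Chd8, in both sexes averaged, in males and in females. Each interval of a CA1 or CA3 gene includes 0, and those of the CA1 genes and Coch are wider than those of Cpne4 and Grik4, whereas Chd8 lies at -0.22 in the average.

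The upstream windows of the members were searched for short motifs. RefSeq windows were at hand for 8 of 10 genes (10 windows, Pou3f1 and Lefty1 not among them), and motifs were matched on both strands in the 250 bases before each start. The E-box CAGATG was in 2 of 10 windows (Wfs1 and Iyd), against 14.4% of all windows, and TATAAA in 1 of 10 (Iyd), against 12.4%. Annotated exons cover 223 of the 250 bases of the Wfs1 window and 34 of those of Iyd. The octamer ATGCAAAT, which POU factors bind, and the cyclic AMP response element TGACGTCA were in 0 of 10 windows, against 1.60% and 1.55% of all windows. Whether these counts depart from the shares over all windows was not tested, and 10 windows are too few to show it.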

How the data were processed

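Hippocampal RNA of 12 samples was sequenced from TruSeq v2 libraries, per the labels' protocols, and deposited as 1 table of normalized counts. GRCm38 is the build, and HTSeq, DESeq2, Trimmomatic 0.35 and TopHat2 2.1.0 are the tools, that the submitters' processing notes list, with no roles or order. The deposited signal values behave as read counts scaled by a factor for each library: divided by the smallest step of each library, they came out as whole reads within a tolerance of 1e-06. Symbols and exon lengths came from GENCODE M21 and upstream sequences from RefSeq.

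Genes with a mean of at least 10 (17496, with 28582 not tested) were fitted with limma 3.58.1 (trend) on log2(value + 1), with 4 group means and Benjamini-Hochberg adjustment over all tested genes at 0.05. Fold changes are on that scale. edgeR 4.0.16, DESeq2 1.42.0 and limma-voom on the recovered reads, other scalings, filters and pseudocounts, a choroid plexus covariate, a replicate block and left-out libraries were alternatives. The limma step was tested on simulated data. The other genes named are Chd8, the 2 of a marker list with the widest spread, and the nearest genes by correlation (5 per field, 3 for the most variable member of each). One gene that this rule names is not reported here. Members and lists were chosen with earlier results of these data known.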

Additional observations from a re-analysis of the deposited data

How the results depend on the processing

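Of the 10 field genes, 0 passed in any comparison under any alternative run, though 7 DESeq2 results within a sex had no adjusted p. Leaving out 1 library at a time, their median averaged difference stayed between -0.12 and 0.14 for CA1 and between -0.02 and 0.08 for CA3, and the within-group SD of the CA1 minus CA3 level between 0.33 and 0.53. The SD of Bok was 0.10 with the 3 libraries poorest in choroid plexus markers left out. Of all tested genes, the 1 called in the sex average became 0 without a filter, with upper-quartile factors, scaled to the genes of all pyramidal cells, and with the replicate block, 75 with DESeq2, 82 with the 3 choroid-poor libraries left out, and 0 to 8 without single libraries (8 without mutant male 3). In males the count was 35 with DESeq2, 12 without those 3 libraries (which leaves mutant male 1 as the only mutant male, assumed to vary like the other groups) and 0 to 1 without single libraries. In females it was 11, 1 and 0 to 1, for genotype by sex 3, 2 and 0 to 1, and between the sexes 48, 34 and 11 to 18. Libraries of the same replicate number (correlations of -0.58 to 0.29, 4 of 18 over 0.1) were not more alike than those of different numbers (-0.39 to 0.59, 8 of 36). Such correlations cannot show that equal numbers mark no pairs, and the replicate block left 0 field genes called. The signs of the field genes' differences, none of which passed, changed in 42 of 600 recomputed values. With the choroid plexus covariate, the values that changed sign were in the sex average Wfs1 -0.024, Fibcd1 -0.085, Lefty1 -0.0032, Cpne4 0.011, in males Wfs1 -0.26, Iyd 0.051, Coch 0.35, in females Pou3f1 0.10 and for genotype by sex Pou3f1 -0.44, Coch 0.10. Scaled to the genes of all pyramidal cells, the values that changed sign were in the sex average Wfs1 -0.0045, Fibcd1 -0.035, Grik4 -0.046, in males Wfs1 -0.095, Bok -0.0061, Cpne4 -0.077, Grik4 -0.050, in females Bok 0.014 and for genotype by sex Pou3f1 -0.10, Bok -0.020, Iyd -0.089, Grik4 -0.0065. With the 3 choroid-poor libraries left out, where male and genotype-by-sex values rest on mutant male 1 as the only mutant male, the values that changed sign were in the sex average Wfs1 -0.089, Fibcd1 -0.16, Lefty1 -0.12, Grik4 -0.010, in males Wfs1 -0.30, Coch 0.50, in females Pou3f1 0.088, for genotype by sex Pou3f1 -0.36, Coch 0.18 and between the sexes Wfs1 -0.064, Coch 0.14. With upper-quartile factors, the values that changed sign were in males Pou3f1 0.018, in females Mpped1 -0.0064 and for genotype by sex Wfs1 0.029. With edgeR, the values that changed sign were in males Pou3f1 0.0065, in females Mpped1 -0.047 and for genotype by sex Wfs1 0.045. With DESeq2, the values that changed sign were in males Pou3f1 0.0082, in females Mpped1 -0.050 and for genotype by sex Wfs1 0.052. Without single libraries 81 of 600 changed sign, with ranges in the sex average Wfs1 -0.076 to 0.16, Fibcd1 -0.12 to 0.15, Mpped1 -0.25 to 0.059, Pou3f1 -0.19 to 0.047, Lefty1 -0.088 to 0.25, Bok -0.0074 to 0.13, Cpne4 -0.050 to 0.017, Grik4 -0.022 to 0.084; in males Wfs1 -0.16 to 0.22, Fibcd1 -0.40 to 0.13, Mpped1 -0.37 to 0.083, Pou3f1 -0.075 to 0.13, Lefty1 -0.25 to 0.16, Iyd -0.23 to 0.083, Coch -0.45 to 0.083; in females Wfs1 -0.20 to 0.27, Fibcd1 -0.12 to 0.35, Mpped1 -0.36 to 0.27, Pou3f1 -0.38 to 0.10, Lefty1 -0.12 to 0.56, Bok -0.15 to 0.10, Grik4 -0.14 to 0.075; for genotype by sex Wfs1 -0.22 to 0.25, Mpped1 -0.42 to 0.20, Pou3f1 -0.10 to 0.38, Lefty1 -0.62 to 0.055, Iyd -0.091 to 0.22; between the sexes Wfs1 -0.051 to 0.18, Mpped1 -0.28 to 0.029, Lefty1 -0.24 to 0.10, Bok -0.045 to 0.095, Iyd -0.0013 to 0.16, Coch -0.25 to 0.022, Grik4 -0.073 to 0.033. The causes were not tested. Depth is lower in every mutant library than in every wild-type library, and 3 libraries a group limit the CA1 genes and Coch most.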
